A study of Mus musculus with 6 samples.

Results

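Acute-phase proteins are plasma and tissue proteins whose synthesis changes with inflammation, and several of them also bind microbes or microbial products as soluble pattern-recognition molecules. The 10 genes of this group, Saa3, Orm1, Orm2, Hp, Hpx, Lbp, Ptx3, Serpina3n, A2m and Itih4, were measured among 22180 genes in mouse prostate epithelial cancer cells. They were chosen by their measured rise in PIM1 cells, the largest rises being preferred, and by a known acute-phase role, with no numerical threshold. Their differences come from the same arrays that chose them and are given as a description, with no test. Each of the 10 genes had 1 probe set of its own on the array, and no probe set shared with another symbol named any of them.

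The cells came from Rb1F/F:Trp53F/F:PB-Cre4 mice, in which both tumour suppressor genes carry loxP sites and Cre is driven by the probasin promoter, which is active in prostate epithelium. All arrays share this background, and deletion of both genes in the cultured cells was not checked here. The control cells received a lentivirus with an empty vector (EV, 3 arrays) and the others a lentivirus for PIM1, a serine/threonine kinase (PIM1, 3 arrays). Both were grown in a medium with charcoal-stripped serum, insulin, transferrin, selenium, pituitary extract, epidermal growth factor and cholera toxin. The labels give neither an age of the mice, nor clones, nor the promoter of the vector, nor whether arrays within a group came from separate cultures. The spread behind each p-value is therefore that between these arrays alone and may be technical. Values are log2 signals of a whole-transcript array, differences are PIM1 minus EV on the log2 scale, and a gene is said to have risen or fallen where limma's adjusted p was under 0.05 over all genes.

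In the liver, acute-phase genes are switched on mainly by interleukin-6 and interleukin-1, which act through STAT3, C/EBP factors and NF-kappaB on their promoters. Many are also made outside the liver, in epithelia, fibroblasts, adipocytes and macrophages. Saa3 belongs to the serum amyloid A apolipoproteins, Orm1 and Orm2 encode orosomucoids, which are lipocalins, Hp and Hpx encode the scavengers of free haemoglobin and haem, Lbp and Ptx3 encode pattern-recognition proteins, and Serpina3n, A2m and Itih4 encode protease inhibitors or relatives of them.

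Genes with like changes invite a look at their promoters. The stretch of 250 bases before the RefSeq transcription start (assembly GRCm38.p6) was read for the 6 of the 10 genes with a promoter window. The source of the windows held none for Orm1, Hp, Lbp and A2m, so these were not read. Letters of a C/EBP motif are shown in capitals in Saa3, Orm2 and Ptx3, those of an NF-kappaB motif in Serpina3n, and those of a STAT and an NF-kappaB motif in Itih4. Each sequence is written 5′ to 3′ on the strand of its gene. They lie at chr7:46715677-46715926 on the minus strand for Saa3, chr4:63362199-63362448 on the plus strand for Orm2, chr3:66219637-66219886 on the plus strand for Ptx3, chr12:104406458-104406707 on the plus strand for Serpina3n and chr14:30886226-30886475 on the plus strand for Itih4.
Saa3: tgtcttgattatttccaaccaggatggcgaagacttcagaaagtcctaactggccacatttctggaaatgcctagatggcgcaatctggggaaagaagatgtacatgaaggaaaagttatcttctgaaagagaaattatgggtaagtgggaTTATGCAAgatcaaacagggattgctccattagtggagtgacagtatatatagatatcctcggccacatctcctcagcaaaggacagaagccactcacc
Orm2: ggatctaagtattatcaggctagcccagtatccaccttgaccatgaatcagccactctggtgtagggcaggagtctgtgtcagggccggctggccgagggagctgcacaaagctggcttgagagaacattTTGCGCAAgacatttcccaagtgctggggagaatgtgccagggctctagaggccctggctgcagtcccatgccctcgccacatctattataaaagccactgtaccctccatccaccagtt
Ptx3: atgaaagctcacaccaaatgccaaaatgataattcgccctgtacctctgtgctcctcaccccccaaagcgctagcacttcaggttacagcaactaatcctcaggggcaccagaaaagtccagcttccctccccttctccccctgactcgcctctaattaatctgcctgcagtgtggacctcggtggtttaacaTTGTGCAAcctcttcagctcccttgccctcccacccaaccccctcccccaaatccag
Serpina3n: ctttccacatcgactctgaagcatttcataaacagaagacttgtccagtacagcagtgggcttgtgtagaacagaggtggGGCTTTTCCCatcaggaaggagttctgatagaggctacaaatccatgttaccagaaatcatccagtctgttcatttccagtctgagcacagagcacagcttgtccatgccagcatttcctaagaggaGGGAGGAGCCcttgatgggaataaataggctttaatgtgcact
Itih4: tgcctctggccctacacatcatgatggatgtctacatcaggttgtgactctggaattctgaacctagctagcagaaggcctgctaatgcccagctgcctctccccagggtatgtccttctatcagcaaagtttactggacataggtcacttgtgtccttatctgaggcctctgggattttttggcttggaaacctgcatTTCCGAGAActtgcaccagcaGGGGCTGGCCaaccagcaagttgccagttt

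The C/EBP search took TTGCNNAA on both strands, which reads TTNNGCAA on the other. It matched once each in Saa3 (TTATGCAA, 99 to 92 bases before the start), Orm2 (TTGCGCAA, 120 to 113 bases before), Ptx3 (TTGTGCAA, 57 to 50 bases before) and Hpx (TTGCTGAA, 200 to 193 bases before, window not printed). Thus 4 of 6 windows held these letters, as did 9.57% of all 32841 promoter windows of this length. The NF-kappaB search took GGGA or GGGG, any 4 bases and CC on both strands, and found matches in 2 of 6 windows, against 28.4% of all windows. Serpina3n held a pair of them, GGCTTTTCCC at 170 to 161 and GGGAGGAGCC at 43 to 34 bases before the start, and Itih4 held GGGGCTGGCC at 30 to 21 bases before. The STAT search took TTC and GAA with 3 or 4 bases between them and matched in Itih4 alone among the 6 (TTCCGAGAA, 51 to 43 bases before), against 12.4% of all windows. No match of a motif overlapped one of another in these 6 windows, and a match describes letters only.

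Before the genes themselves, the arrays were checked as a whole. Over all genes, EV arrays correlated with each other at 0.990 to 0.991, PIM1 arrays at 0.994 to 0.996 and arrays of different groups at 0.963 to 0.967. Pim1 read 5.26, 6.25 and 5.23 in EV against 7.11, 6.89 and 6.97 in PIM1. Of 22180 genes 27.0% passed, 16.1% higher (3575 genes) and 10.9% lower (2420 genes). The lower count was 1490 without PIM1 replicate 1, 1463 without PIM1 replicate 2 and 1558 after centring each array on its median. The higher genes made up 59.6% of those that passed, and 73.5% after that centring. The epithelial label was only partly borne out. Of 7 measured prostate epithelial markers, 3 lay below the median signal on all 6 arrays, among them Epcam (2.28 to 2.51) and Trp63 (2.67 to 3.17). Krt8, Cdh1 and Krt18 lay above the median on all 6 arrays. Krt8 lay at 4.48 to 4.84 and Cdh1 at 4.91 to 5.42 in EV and 4.21 to 4.30 in PIM1. Krt18 lay at 9.09 to 9.21 in EV and 4.79 to 5.02 in PIM1. Of 7 measured prostate epithelial markers 0 rose and 3 fell with limma (0 and 4 at an unadjusted p under 0.05), namely Krt18, Cdh1 and Krt19. The Krt19 call was lost with quantile scaling, with median centring and on dropping any PIM1 replicate. The collagen genes Col1a1 and Col3a1, made by fibroblasts, were above the upper quartile of signals on all 6 arrays, at 8.90 to 8.98 and 9.92 to 9.99 in EV. Fibroblast markers were not uniformly bright: of 10 measured, 2, Lum and Fap, lay below the median signal on every array.

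Saa3, an acute-phase serum amyloid A gene expressed in many tissues outside the liver, showed the largest positive difference of all genes. Its signal was 3.13, 2.90 and 3.08 in EV against 12.46, 12.53 and 12.51 in PIM1. The EV arrays all lay below the median signal of their array, the PIM1 arrays all above the upper quartile, and the groups were separated by a gap of 9.33. The difference was 9.46, a 704-fold change. The spread between replicates was 0.12 (SD, n = 3) in EV and 0.034 in PIM1. No detection calls were used, so whether the EV signals of Saa3 lay above background is not known. The 250 bases before the Saa3 start are those printed above with the C/EBP letters TTATGCAA.

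The orosomucoid genes were higher in PIM1 cells to unequal degrees. Orosomucoids are small glycoproteins of plasma that carry lipophilic ligands. Orm2 read 2.65, 2.70 and 2.53 in EV against 6.39, 7.14 and 6.80 in PIM1. All PIM1 arrays were well above all EV arrays, with the widest spread of any of the 10 genes in PIM1 (SD 0.380, n = 3). The Orm2 difference was 4.15, or 17.7-fold. Orm1 read 4.04, 4.28 and 2.93 in EV against 5.69, 5.58 and 6.12 in PIM1. EV replicate 3 stood more than 1 unit below the other EV arrays, and the groups did not overlap. The Orm1 difference was 2.05 (4.14-fold), and 1.64 to 2.31 when each array was left out in turn.

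Hp and Hpx, which clear free haemoglobin and haem from plasma, were both higher in PIM1 cells, Hp by the larger step. Hp read 3.06, 3.61 and 3.95 in EV against 7.31, 7.70 and 7.46 in PIM1. The EV arrays spread over 0.888 and none of them came within 3.37 of the lowest PIM1 array. The Hp difference was 3.95, a 15.5-fold change. Hpx read 4.19, 4.15 and 4.43 in EV against 5.60, 5.44 and 5.59 in PIM1. These groups were the closest of those whose PIM1 arrays all lay above EV, with a gap of 1.01. The Hpx difference was 1.28 (2.43-fold) with SDs of 0.151 in EV and 0.088 in PIM1.

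Both soluble pattern-recognition genes were much higher in PIM1 cells. Lbp encodes the plasma protein that passes bacterial lipopolysaccharide to CD14. Its signal was 3.17, 2.68 and 3.19 in EV against 9.45, 9.63 and 9.60 in PIM1. The groups were 6.26 apart at their nearest arrays. The Lbp difference was 6.54, or 93.4-fold, and only 3 genes of the array had larger rises. Ptx3 encodes a long pentraxin that binds microbes, complement C1q and matrix components. It read 3.52, 3.15 and 3.41 in EV against 8.66, 8.43 and 8.94 in PIM1. Every PIM1 array exceeded every EV array by at least 4.91. The Ptx3 difference was 5.31 (39.8-fold).

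Among the inhibitor genes, Serpina3n was higher and the other two were not. Serpina3n encodes a serine protease inhibitor related to human alpha-1-antichymotrypsin. It read 2.49, 2.79 and 3.24 in EV against 7.34, 7.46 and 7.24 in PIM1. The EV arrays all lay below the median of their array, and the PIM1 arrays all above its upper quartile. The Serpina3n difference was 4.51 (22.8-fold).

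A2m, the gene of the broad protease trap alpha-2-macroglobulin, read 2.90, 2.77 and 2.47 in EV against 2.98, 2.88 and 2.82 in PIM1. The groups overlapped and all 6 values lay below the median signal of their array. The A2m difference was 0.18, against an SD of 0.222 in EV. With the arrays rescaled by quantiles, by their medians or by cyclic loess it was 0.31, 0.28 and 0.31, and the arrays no longer overlapped. Itih4, a heavy-chain relative of the inter-alpha-trypsin inhibitors, was the only one of the 10 genes with a negative difference. It read 3.38, 3.21 and 3.30 in EV against 3.03, 2.82 and 2.92 in PIM1. All PIM1 values were below all EV values, and all 6 were below the median of their array. The Itih4 difference was -0.37, and -0.26, -0.28 and -0.25 under those 3 scalings.

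**Figure D1:**
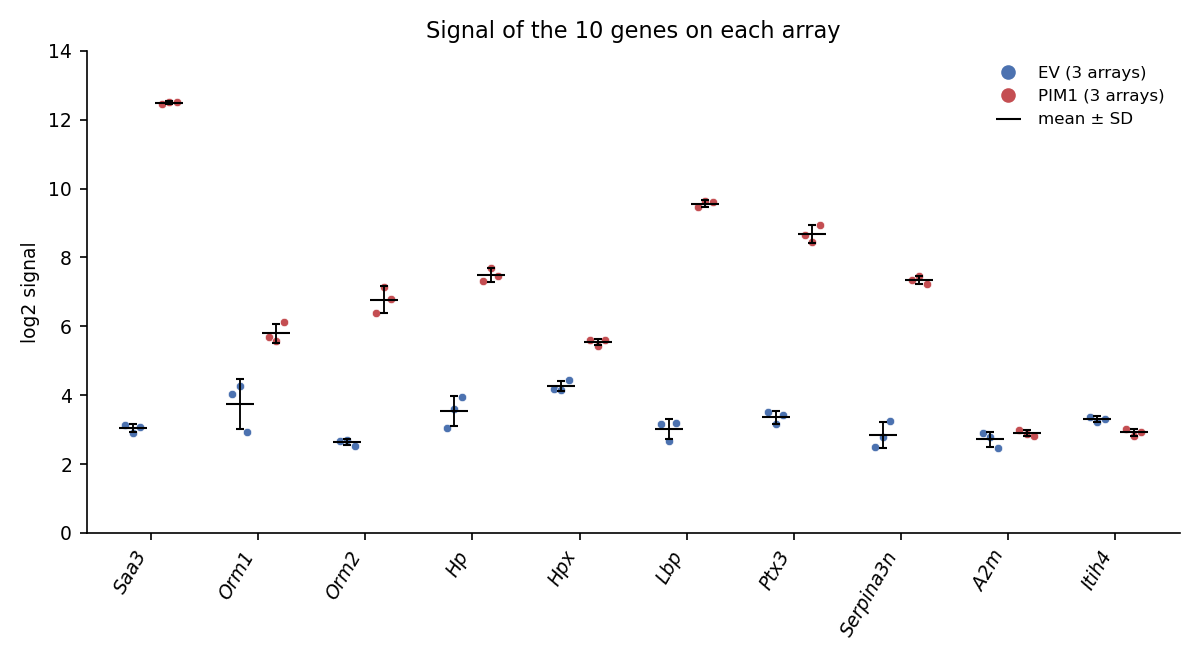
Log2 signal of each of the 10 genes (horizontal axis) on the 3 EV arrays (blue) and the 3 PIM1 arrays (red), with black bars for the mean and SD of each group. In 8 genes every PIM1 array lies above every EV array, from Saa3 (12.50 against 3.04) to Hpx (5.54 against 4.26), whereas A2m overlaps and Itih4 is slightly lower in PIM1.

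Set side by side, 8 of the 10 genes had all PIM1 arrays above all EV arrays, 1 had them below and 1 overlapped. Over all genes 22.3% had every PIM1 array above every EV array, and since the 10 genes were chosen by their rise nothing is read from that comparison. The median difference of the 10 genes was 4.05, and that of all genes -0.05. In order of rise, Saa3 was at place 1 of all genes, Lbp at 4, Ptx3 at 10, Serpina3n at 27, Orm2 at 38, Hp at 42, Orm1 at 253, Hpx at 643 and A2m at 5905. In EV 6 of the 10 genes lay below the median signal on every array, and in PIM1 6 lay above the upper quartile on every array. The replicates of the 10 genes were tighter in PIM1, with a median SD of 0.107 against 0.206 in EV, and 7 of the 10 had the larger SD in EV. Over all genes too, PIM1 arrays correlated more closely with each other (0.994 to 0.996) than EV arrays did (0.990 to 0.991). No array was consistently high: EV replicates 1, 2 and 3 were the highest of their group for 4, 2 and 4 genes, and PIM1 replicates 1, 2 and 3 for 3, 5 and 2.

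**Figure D2:**
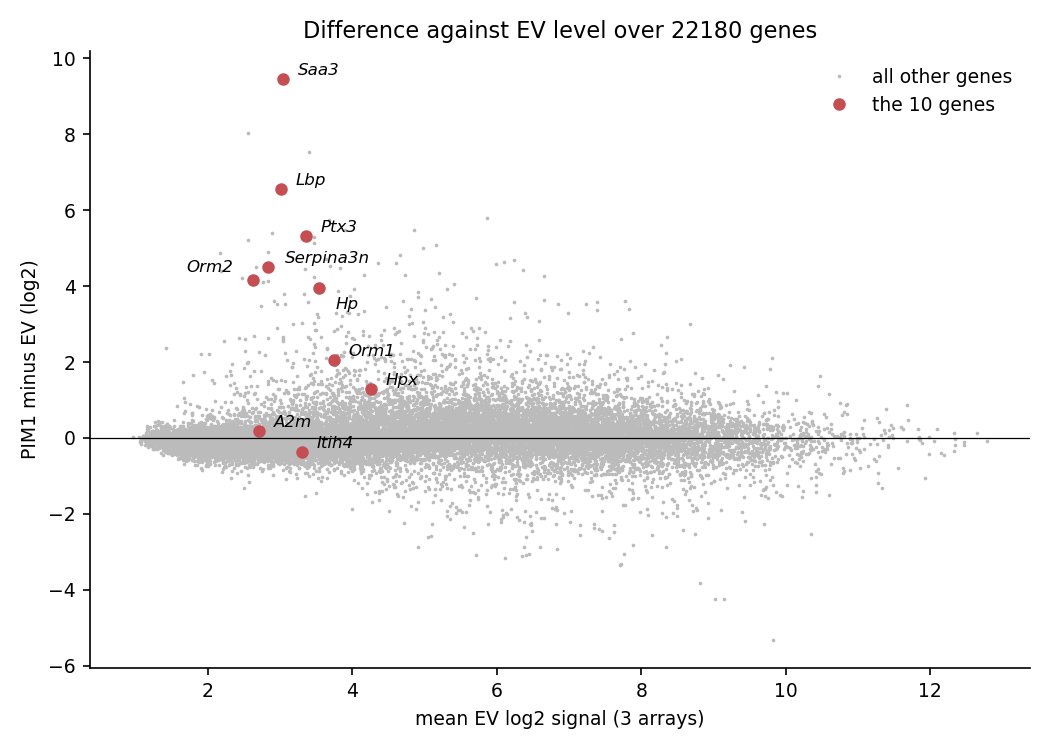
Difference PIM1 minus EV (log2, vertical axis) against the mean EV log2 signal (horizontal axis) for 22180 genes, each grey point being a gene and each red point one of the 10. The 8 higher genes start from EV means between 2.63 (Orm2) and 4.26 (Hpx), and A2m (0.18) and Itih4 (-0.37) lie in the mass of genes around 0.

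The families of these genes were not uniformly higher. Saa4, a constitutive serum amyloid A gene, read 2.53, 2.26 and 2.64 in EV against 6.35, 6.64 and 7.06 in PIM1. Its PIM1 arrays all exceeded EV, and it rose by 4.21 (SE 0.187, limma adjusted p = 2.80e-06). Saa2, a classical liver serum amyloid A gene, rose by 2.60, from 2.52 ± 0.24 (SD, n = 3) to 5.11 ± 0.10 (limma adjusted p = 6.75e-06). Near-identical Saa genes can share signal. The third orosomucoid gene Orm3 rose by 1.18, from 2.51 ± 0.26 to 3.69 ± 0.17 (limma adjusted p = 8.40e-04). Probe sets of the close Orm copies can likewise take up each other's signal.

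Of 13 measured genes that are relatives of the inhibitor genes or, like Tnfaip6, act with their products, 3 rose and 0 fell with limma (3 and 1 at an unadjusted p under 0.05), which is 23.1% higher against 16.1% of all genes, and their median difference was -0.07. Of the 3, Itih2 and Serpina3i are family relatives and Tnfaip6 is not. Itih2, another inter-alpha-trypsin heavy chain, read 4.62, 4.86 and 4.60 in EV against 8.14, 8.35 and 8.42 in PIM1. With no overlap, Itih2 rose by 3.61 (SE 0.122, limma adjusted p = 7.35e-07), whereas the differences of Itih1, Itih3, Itih5 and the light-chain gene Ambp, between -0.18 and 0.08, did not pass. Tnfaip6, whose product moves heavy chains onto hyaluronan, rose by 2.60 from 4.02 ± 0.34 to 6.61 ± 0.13 (limma adjusted p = 2.16e-05). Serpina3i rose by 1.26 (limma adjusted p = 2.47e-04). Serpina3a, Serpina3b and Serpina3j did not pass, with differences of -0.20, -0.29 and -0.25. Serpina3c, Serpina3f, Serpina3g, Serpina3h, Serpina3k and Serpina3m had no probe set of their own, so much of this family was not measured. None of the measured relatives of A2m passed, Pzp, Mug1, Mug2 and Cd109 having differences of -0.07, -0.22, 0.32 and 0.11. Likewise the short pentraxins Crp and Apcs, which mark the acute phase in human and mouse liver, had differences of -0.18 and 0.00 and did not pass. Bpi, the neutrophil relative of Lbp, differed by -0.22 and did not pass.

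**Figure D3:**
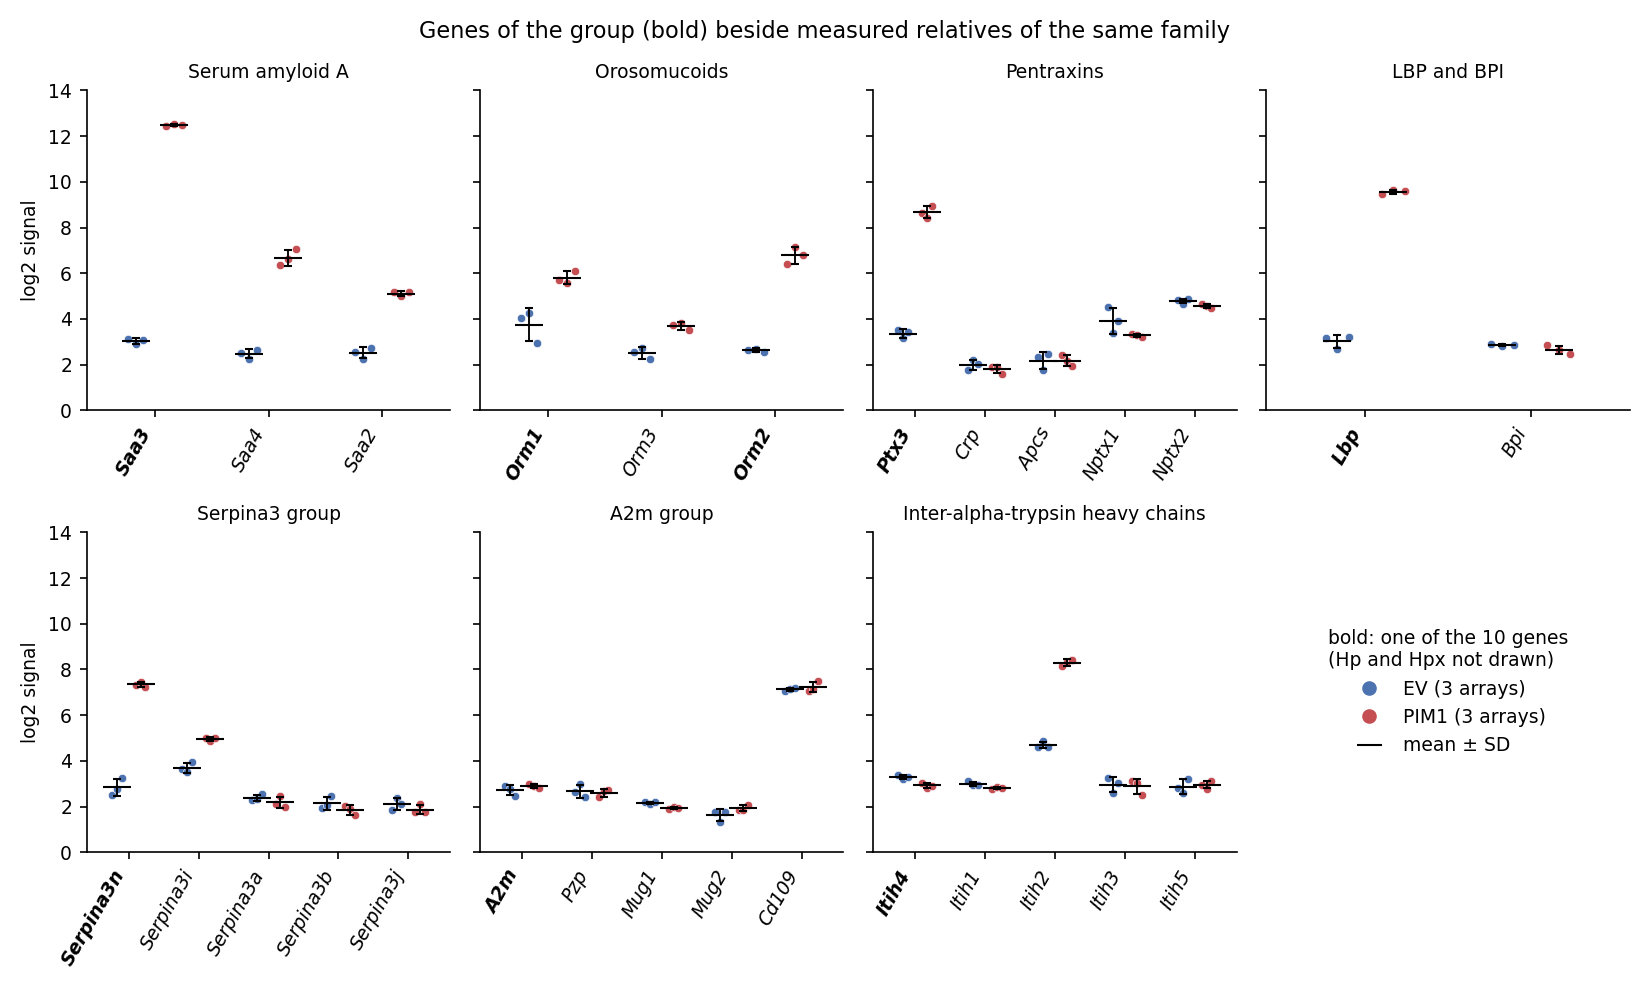
Log2 signal on the 3 EV (blue) and 3 PIM1 arrays (red) of genes of the group (bold) beside measured relatives, a panel per family, with mean and SD in black. Saa and Orm relatives are higher in PIM1 with their family. Itih2 (8.30 against 4.69) stands out from its family, and Serpina3i (4.95 against 3.69) is higher by less than Serpina3n (7.35 against 2.84). The relatives of A2m, Ptx3 and Lbp did not pass the test.

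Among 26 other measured acute-phase serum protein genes, 11 rose and 0 fell with limma (11 and 1 at an unadjusted p under 0.05), which is 42.3% higher against 16.1% of all genes. Their median difference was 0.12. Like all lists here, this one was chosen with earlier results of these data known. Lcn2, a lipocalin that binds bacterial siderophores, rose by 7.52 from 3.40 ± 0.30 to 10.92 ± 0.03 (limma adjusted p = 9.59e-08). Cp, the copper-carrying ferroxidase ceruloplasmin, read 4.99, 4.86 and 5.08 in EV against 9.93, 9.95 and 10.07 in PIM1 and rose by 5.01 (limma adjusted p = 9.69e-08). Cfb, complement factor B, rose by 5.15 from 3.46 ± 0.24 to 8.61 ± 0.08 (limma adjusted p = 2.59e-07). Serping1, the C1 inhibitor, rose by 2.30 and Agt, angiotensinogen, by 2.04. The metallothionein genes Mt1 and Mt2 rose by 1.36 and 1.38, and Il1rn, the interleukin-1 receptor antagonist, by 1.00. Saa4, Saa2 and Orm3 complete the 11. The fibrinogen chain genes Fga, Fgb and Fgg, with differences of 0.06, -0.17 and -0.02, did not pass. Neither did the hepcidin genes Hamp and Hamp2 (-0.31 and -0.15) nor the 5 Serpina1 genes of alpha-1-antitrypsin (-0.55 to 0.21). Serpina1d fell without EV replicate 1 (-0.77, limma adjusted p = 0.0136), and Serpina1e rose without PIM1 replicate 2 (0.60, limma adjusted p = 0.0320). Lrg1, a leucine-rich glycoprotein, and Vtn, vitronectin, differed by 0.18 and 0.00 and did not pass.

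Other soluble pattern-recognition genes mostly did not pass. Of 24 measured, 2 rose and 1 fell with limma, with a median difference of -0.19. That is 8.33% higher and 4.17% lower, against 16.1% and 10.9% of all genes. The galectin genes Lgals9 and Lgals3 rose by 1.96 and 1.00 from EV signals of 7.56 ± 0.01 and 6.47 ± 0.01. Colec11, a collectin of the lectin complement pathway, fell by 0.93 from 3.34 ± 0.36 to 2.41 ± 0.11 (limma adjusted p = 0.00598). The mannose-binding lectins, ficolins, surfactant proteins, peptidoglycan recognition proteins and C1q chains did not pass. Without EV replicate 2, 4 genes of this list fell, Lyz2, Nptx1 and Itln1 being added. Without EV replicate 3, 2 fell, with Pglyrp4 beside Colec11. Of the 24 genes, 15 lay below the median signal on every array, so the share of all genes is an unlike measure for this list. Only 4 of the 24 were among the 11090 brighter genes, ranked by mean signal over all 6 arrays. When these brighter genes were tested alone, 2 of the 4 rose, where 3831 of 11090 did.

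**Figure D4:**
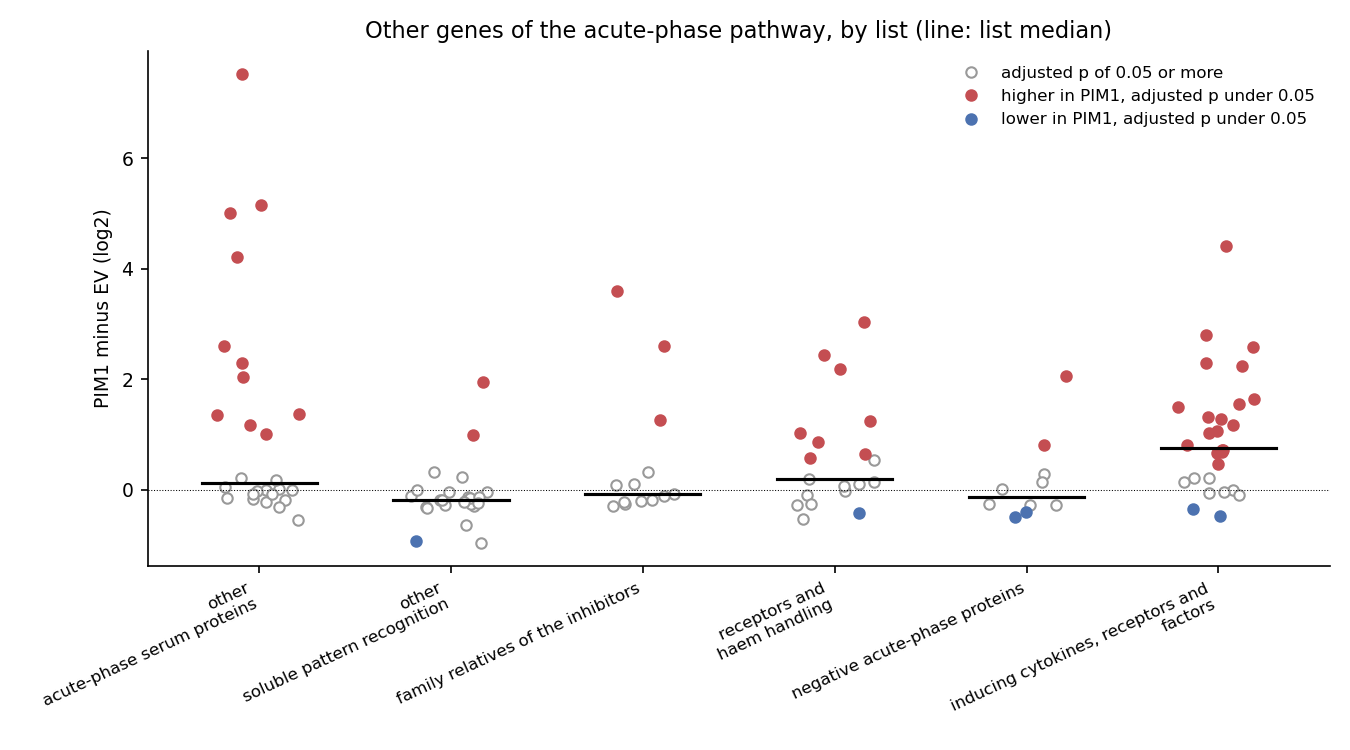
Difference PIM1 minus EV (log2, vertical axis) of each measured gene of 6 lists, a point per gene, filled where limma's adjusted p was under 0.05 (red higher, blue lower) and open otherwise, with a line at each list's median. The inducing cytokines, receptors and factors have the highest median (0.77), and in the list of other acute-phase serum proteins 11 genes lie well above a median of 0.12.

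Genes for the receptors of these proteins and for haem handling rose in 8 of 19 measured cases and fell in 1. That is 42.1% higher and 5.26% lower, against 16.1% and 10.9% of all genes, with a median difference of 0.20. When the brighter genes were tested alone, 9 of 14 genes of this list rose, where 3831 of 11090 rose. The lipopolysaccharide receptor that Lbp serves consists of CD14, TLR4 and MD-2 (Ly96). Cd14 read 5.27, 5.92 and 5.42 in EV against 7.53, 7.90 and 7.76 in PIM1. Without overlap, Cd14 rose by 2.20 (limma adjusted p = 6.85e-05) and Ly96 by 1.24 (limma adjusted p = 0.00537). Tlr4 rose by 0.57 (limma adjusted p = 0.0316). With quantile or cyclic loess scaling its limma adjusted p was 0.0677 and 0.0548, and on dropping EV replicate 1, EV replicate 3, PIM1 replicate 2 or PIM1 replicate 3 it was 0.0833, 0.0573, 0.0733 and 0.0961. Tlr2, the receptor for bacterial lipoproteins, rose by 3.04 from 4.98 ± 0.25 to 8.02 ± 0.05, and P2rx7, an ATP-gated channel, by 2.44. Hmox1, the enzyme that breaks down haem, rose by 1.02, the ferritin gene Fth1 by 0.87 and the biliverdin reductase gene Blvrb by 0.66. The Blvrb call was lost with quantile scaling (limma adjusted p = 0.0534) and on dropping PIM1 replicate 1 or 3 (0.0768 and 0.0746). Cd36, a scavenger receptor, fell by 0.42 at a low signal (2.08 ± 0.05 to 1.65 ± 0.12). The Cd36 call was lost with quantile scaling, centring on the median, cyclic loess and on dropping PIM1 replicate 2 (limma adjusted p = 0.0929, 0.0511, 0.0958 and 0.0758). Slc40a1, the iron exporter ferroportin, fell without EV replicate 1 (-0.73, limma adjusted p = 0.0263), and Blvra with quantile scaling (-0.41, limma adjusted p = 0.0307). Tlr6, a partner of Tlr2, differed by 0.54 (limma adjusted p = 0.0621) and passed with a trended and robust variance (0.0492), with median centring (0.0327), among the brighter genes (0.0321) and without EV replicate 2 (0.00424). Lrp1, which takes up hemopexin with haem and alpha-2-macroglobulin with proteases, differed by 0.11 and did not pass, and neither did Cd163, the macrophage receptor for haptoglobin with haemoglobin (-0.26).

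Of 10 measured negative acute-phase genes, whose plasma products drop during inflammation, 2 rose and 2 fell, against 16.1% higher and 10.9% lower over all genes, with a median difference of -0.12. Rbp4, the retinol carrier, rose by 2.06 from 4.33 ± 0.28 to 6.39 ± 0.20 (limma adjusted p = 6.14e-05), and the fetuin gene Ahsg rose by 0.81 (limma adjusted p = 0.00588). Alb, the albumin gene, fell by 0.40 from 2.11 ± 0.05 to 1.70 ± 0.09, and Hrg, histidine-rich glycoprotein, by 0.49 from 1.99 ± 0.25 to 1.49 ± 0.09. Both lie at low signals, and both calls were lost under each of these 3 scalings and on dropping PIM1 replicate 1 or 2. Hrg was also lost without EV replicate 1 or 2 or PIM1 replicate 3. Without EV replicate 3, Apom also fell (-0.42) and Serpina6 rose (0.47), with limma adjusted p of 0.0464 and 0.0495. Ttr, transthyretin, and Apoa1 did not pass (-0.28 and 0.02).

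The genes that induce the acute phase rose in 19 of 28 measured cases and fell in 2, with a median difference of 0.77. These shares, 67.9% higher and 7.14% lower, stand beside 16.1% and 10.9% of all genes. The list is brighter than most genes: 23 of the 28 were among the 11090 brighter genes. Of those 23, 19 rose when the brighter genes were tested alone, where 3831 of 11090 rose. The list was also chosen with earlier results of these data known, so the gap between the shares is a description. Il6, the main inducing cytokine, read 2.06, 2.18 and 2.32 in EV against 6.58, 6.64 and 6.56 in PIM1. The groups lay far apart, and Il6 rose by 4.41 (SE 0.104, limma adjusted p = 1.60e-07). Cebpb and Cebpd, the C/EBP factors of the acute phase, rose by 2.29 and 2.81, whereas the hepatic factor genes Cebpa and Hnf4a did not pass (-0.05 and -0.09). Osmr, the oncostatin M receptor, rose by 2.25 and Socs3, the feedback inhibitor of this signalling, by 2.59. Stat3 rose by 1.32, Jak2 by 1.55, Nfkbiz, an atypical NF-kappaB regulator, by 1.65 and Il1r1, the interleukin-1 receptor, 2.83-fold. The shared receptor chain gene Il6st rose by 0.69 and Il6ra by 1.08. Il1a rose by 1.17, while Il1b (-0.01) did not pass. The cytokine genes Il11 and Osm fell by 0.48 and 0.35 (limma adjusted p = 0.0374 and 0.0484). Il11 passed neither under any of the 3 other scalings nor without EV replicate 1 or 3 or any PIM1 replicate, and the same holds for Osm, which was also lost with a trended and robust variance.

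Markers of other cells were set beside these results. Of 12 hepatocyte markers 0 rose and 1, Alb, fell with limma (0 and 3 at an unadjusted p under 0.05), and 10 lay below the median signal on every array. Of 10 macrophage and leukocyte markers 0 rose and 1, Csf1r, fell (1 and 2 at an unadjusted p under 0.05). None of 5 endothelial markers passed (0 and 0 at an unadjusted p under 0.05). Of 10 fibroblast markers 8 rose and 1, Fap, fell (80% and 10%, against 16.1% and 10.9% of all genes). Their mean signal was 5.95 to 6.02 on the EV arrays and 7.68 to 7.75 on the PIM1 arrays. Dcn rose from 4.85 ± 0.09 to 10.33 ± 0.16 and Pdgfra from 6.23 ± 0.28 to 10.93 ± 0.11. The Fap call was lost with quantile or cyclic loess scaling and on dropping PIM1 replicate 1 or 2. The Lum call, a rise of 0.46 at a low signal, was lost on dropping EV replicate 3 or PIM1 replicate 2 or 3. The part of the fibroblast markers in the higher acute-phase signals was not tested. In RNA from whole cultures, more cells of a type and more RNA per cell cannot be told apart.

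Position along the chromosome was also looked at, from the RefSeq order of genes. Among the measured genes, Saa3, Saa4 and Saa2 follow each other on chromosome 7, and Orm1, Orm3 and Orm2 on chromosome 4. These higher genes thus sit in their gene clusters. Over all 10 genes, the next measured genes on either side that were not of the group numbered 19, of which 6 rose and 0 fell, with a median difference of 0.22, beside 16.1% higher and 10.9% lower over all genes. Saa4 and Orm3 are among the 6 and were counted above as relatives and acute-phase genes. The other 4 were Saal1 next to Saa3 (0.38), Txnl4b next to Hp (0.56), Veph1 next to Ptx3 (0.58) and Mustn1 next to Itih4 (1.86). Both neighbours of Lbp, Bpi and Snhg17, and both of Serpina3n, Serpina3j and Gsc, did not pass. Itih3 and Itih1, which follow Itih4 on chromosome 14, did not pass either (-0.08 and -0.18).

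The profile of the group was compared with all other named genes over the 6 arrays, after the EV mean of each gene was taken off. The likeness measure is the root mean square difference in log2 units, a description that mainly reflects the size of the step between the groups. The mean of the 10 genes stood at 3.65, 3.72 and 3.75 on the PIM1 arrays. Nearest to it were Gas6, a ligand of TAM receptors (0.065), Acvr1b, an activin receptor (0.085), Nsg1 (0.096), Bgn, the proteoglycan biglycan (0.104), and the guanylate-binding protein gene Gbp7 (0.120). These 5 genes had differences of 3.59 to 3.75. Nearest to Saa3 were Steap4, a metalloreductase, at a distance of 1.01, Lcn2 at 1.38 and the chemokine gene Cxcl5 at 2.60. Their differences of 8.04, 7.52 and 5.78 were all below that of Saa3, so no gene shared its step closely.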

How the data were processed

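RNA of 6 samples, 3 EV and 3 PIM1, was measured on Affymetrix whole-transcript mouse arrays. The authors deposited 1 value per probe set and array, taken here as log2 signals because they run from 0.344 to 13.0. The log base is not stated, and per the submitters' processing notes Affymetrix Expression Console was used, with no version. Background correction, summarization and normalization have no description in the sources used here, and the values were not scaled again. The number of arrays limits the precision.

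Groups came from sample titles. Of 41345 probe sets 23521 had 1 gene symbol, 1814 several and 16010 none. Entrez identifiers matched 23328 of those with 1 symbol to RefSeq (GRCm38.p6), used for names, gene order and promoter windows. The brightest probe set stood for a gene. The 22180 genes were tested between the groups by limma 3.58.1 under R 4.3.3 (lmFit, eBayes, two-sided, Benjamini-Hochberg, threshold 0.05), and the code was tested on simulated data. The 10 genes and all lists were chosen with earlier results of these data known. Named genes are the 10, the called genes of each list with the smallest p (up to 4, and up to 3 markers), those called against their list, and the nearest profiles, predicted loci left out. Other list genes, neighbours and Pim1 were named after their values were seen. List genes without a probe set of their own, such as C3 and Nfkb1, were not analysed here. The alternatives tried were 3 rescalings (quantile, median, cyclic loess), a trended and robust variance, the brighter genes only, averaged or all probe sets, a replicate block, and dropping each array.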

Additional observations from a re-analysis of the deposited data

Results flagged for a closer look

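The comparisons used only probe sets with 1 gene symbol. Of the probe sets with several symbols, 2 name a gene of the acute-phase lists, and both had all PIM1 arrays above all EV arrays, the control level. Over all genes tested, 22.3% had every PIM1 array above every EV array. The probe set shared by Saa1 and Saa2 read 1.68, 2.12 and 1.85 in EV against 2.53, 3.22 and 3.28 in PIM1, a difference of 1.13. All of these values lay below the median signal of their array. Saa1 had no probe set of its own. The probe set shared by Trf, the transferrin gene, and Srprb read 3.08, 3.57 and 3.45 in EV against 5.04, 5.09 and 5.25 in PIM1, a difference of 1.76. Which of the named genes gave these signals was not tested.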

How the results depend on the processing

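Of 66 list and marker genes that passed, 12 were lost under at least 1 alternative and 0 reversed. The other 54 passed wherever they were tested, but 6 of them were too dim to be tested among the brighter genes, and single genes were not tested with all probe sets. The differences of the 10 acute-phase genes kept their sign under the 3 rescalings and without each array, and the largest move was 0.41, for Orm1 without an array. Leaving out each array in turn gave 4167 to 5369 genes called and 1463 to 2224 lower, against 5995 and 2420, and median centring gave 1558 lower. Small counts of lower genes moved most. In the lists of acute-phase, soluble pattern-recognition, receptor and haem, negative acute-phase and inducing genes they were 0, 1, 1, 2 and 2, and leaving out each array gave 0 to 1, 1 to 4, 0 to 2, 0 to 3 and 0 to 2. Quantile normalization, median centring and cyclic loess each left 0 lower genes in the negative and inducing lists, and the last 2 scalings left 0 in the receptor list. The brighter genes alone hold 11090 genes, with 4, 14, 2 and 23 of the soluble pattern-recognition, receptor, negative and inducing lists. The genes called lower in these lists were too dim to be among them, as was Ahsg of the negative list. The resulting 0 lower genes and 1 higher negative gene therefore do not show whether those calls hold. A trended and robust variance left 1 lower inducing gene. With the replicate number as a block, 5321 genes were called, and the lower counts were 2, 1 and 0 in the soluble pattern-recognition, negative and inducing lists. The labels do not say whether the numbers pair the samples. Deviations of same-numbered arrays correlated at 0.056, -0.031 and 0.0087, which with 3 arrays a group cannot settle it. Beyond the fewer genes and arrays in some settings, the cause was not tested. Many of the lost genes lay at low signals, and 3 arrays a group limit precision. The dim end of the arrays itself differed between the groups. The lower quartile of signals was 2.34 to 2.40 on the EV arrays and 2.23 to 2.24 on the PIM1 arrays. With quantile scaling the differences of Alb and Hrg were -0.26 and -0.35, against -0.40 and -0.49 before. The part of this shift in the lost calls was not tested.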

Other observations

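Of 6 measured adipocyte markers, 1 rose and 1 fell with limma, where 16.1% of all genes rose and 10.9% fell. Fabp4, a fatty acid-binding protein of adipocytes, macrophages and some endothelia, read 3.06, 2.54 and 2.89 in EV against 6.81, 7.08 and 7.02 in PIM1, and rose by 4.14 (limma adjusted p = 1.09e-06). Adipoq, the adiponectin gene and a defining marker of adipocytes, fell by 0.43 from 2.60 ± 0.16 to 2.17 ± 0.10. The Adipoq call was lost with quantile, median and cyclic loess scaling (limma adjusted p = 0.105, 0.0732 and 0.0975) and on dropping EV replicate 3 or any PIM1 replicate. Plin1, Cidec, Lep and Retn did not pass, with differences of -0.23, 0.03, -0.27 and -0.06.

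Further genes of the inducing list also rose. Il1rap, the accessory chain of the interleukin-1 receptor, rose by 1.29 and Lifr, the leukaemia inhibitory factor receptor, by 1.02. The cytokine genes Clcf1 and Lif rose by 0.82 and 0.72, and the NF-kappaB subunit genes Relb and Nfkb2 by 0.72 and 0.67. Ctf1, also a cytokine gene, rose by 0.47 (limma adjusted p = 0.0334). Its call was lost with quantile or cyclic loess scaling and with a replicate block. Dropping EV replicate 2 or 3 or any PIM1 replicate lost it too. Rela, Jak1, Tyk2 and the glucocorticoid receptor gene Nr3c1 differed by 0.14, 0.22, 0.21 and -0.03 and did not pass. Jak1 passed with a trended and robust variance, with median centring and among the brighter genes alone (limma adjusted p = 0.0182, 0.0456 and 0.0481).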
